A study of Homo sapiens with 6 samples.

Results

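The expression of 10 genes of iron storage, uptake, export and regulation was examined in ARPE-19, an established human retinal pigment epithelium (RPE) cell line, among the 33496 genes listed for each library. The genes were FTH1, FTL, TFRC, SLC40A1, SLC11A2, NCOA4, HMOX1, IREB2, ACO1 and STEAP3, chosen by symbol, and each symbol matched 1 listed gene. RNA-seq values of 6 libraries of wild-type cells were available. All 6 libraries came from cells given erastin (5 μM, 24 h), which blocks cystine import and triggers ferroptosis. For 3 of them erastin was given alone (Era), and for 3 it followed a 1 h pretreatment with vitamin K1 (10 μM, Era+VK). No library without erastin was analysed here, so each value compares erastin with vitamin K1 against erastin without it.

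Ferroptosis depends on ferrous iron, which drives the peroxidation of membrane lipids, and a cell's free iron is set by how much it takes up, stores and exports. The iron regulatory proteins IRP1 (encoded by ACO1) and IRP2 (encoded by IREB2) adjust these steps by binding hairpins called iron responsive elements (IREs) in messenger RNAs when iron is scarce. Bound in front of the coding sequence, as in ferritin transcripts, they block translation without needing to change the amount of RNA. Bound behind the coding sequence, as in the transferrin receptor transcript, they protect the RNA from decay. A cell that senses more iron is therefore known to make more ferritin protein and to hold less TFRC RNA. Whether ferritin and TFRC shift in this way between Era and Era+VK can be asked here only at the level of RNA, since no protein was measured in these files.

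To show which of the 10 genes carry such an element, their coding transcripts in GENCODE 29 (build GRCh38) were searched on the transcript strand for C, 5 bases, CAGTGN and 5 further bases in which the flanking runs of 5 form pairs. The sites below are printed 5′ to 3′ over 30 bases, with the unpaired C and the loop CAGTGN in capitals. In FTH1, FTL and SLC40A1 the site lies in the 5′ UTR. In TFRC 4 sites of this form lie in the 3′ UTR, and the SLC11A2 site, also in the 3′ UTR, forms 4 of the 5 pairs. An element with another loop would not be found, so these need not be all the elements of a gene.
FTH1, chr11:61967573-61967602, minus strand: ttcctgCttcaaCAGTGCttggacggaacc
FTL, chr19:48965335-48965364, plus strand: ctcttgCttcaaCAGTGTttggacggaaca
SLC40A1, chr2:189580660-189580689, minus strand: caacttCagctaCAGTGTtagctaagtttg
TFRC site 1, chr3:196050462-196050491, minus strand: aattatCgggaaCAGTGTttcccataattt
TFRC site 2, chr3:196050509-196050538, minus strand: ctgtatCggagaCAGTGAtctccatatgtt
TFRC site 3, chr3:196050574-196050603, minus strand: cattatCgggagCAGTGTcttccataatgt
TFRC site 4, chr3:196050978-196051007, minus strand: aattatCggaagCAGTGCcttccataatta
SLC11A2, chr12:50988268-50988297, minus strand: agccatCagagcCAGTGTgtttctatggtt

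The FTH1 and FTL sites share 26 of 30 bases and 16 of the 17 bases of the element itself. FTH1 holds it in 9 of 10 coding transcripts and FTL in its only coding transcript, while in SLC40A1 it was found in 1 of 5, in TFRC in 3 of 5 and in SLC11A2 in 7 of 25. The deposited values are per gene, so transcripts with and without the element could not be told apart. These shares cover GENCODE 29 alone, whereas the deposited TFRC gene lists 32 transcripts, of which 12 are in GENCODE 29. For comparison, all coding transcripts whose UTR had at least 17 bases, the length of the element, were searched. With all 5 pairs a site was found in the 5′ UTR of 0.0988% of 78929 such transcripts. In the 3′ UTR it was found in 0.365% of 74485. With 4 or 5 pairs the shares of the same transcripts were 0.696% and 2.81%, and at 4 pairs ACO1 and IREB2 also had a match in the 3′ UTR of 1 transcript each. A match describes the sequence and does not show that a protein binds it.

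The data are deposited FPKM, a level per gene that corrects for transcript length and for the size of the library, so genes can be compared with each other. FPKM keep no read counts, and low values of single-exon genes showed no clear whole-read step (concentration 0.184 to 0.213, where 1 would be exact steps), and the depth behind the values is therefore unknown. The labels do not say that the libraries came from separate cultures, so p-values measure the spread between these libraries only. The 11981 genes whose mean over the libraries reached 1 FPKM entered limma on log2(FPKM + 1), and fold changes and standard errors are on that scale. Of these, 74 had an adjusted p under 0.05, which is 0.618%, with 16 higher and 58 lower in Era+VK. That count was 2, 2 and 5 without Era replicate 1, 2 or 3, and 42 without Era+VK replicate 3. Of 15 RPE and epithelial marker genes, 14 were listed, and 6 or 7 of them reached 1 FPKM in a library. The epithelial keratin gene KRT8 (171 to 209 FPKM) and the RPE transcription factor genes OTX2 and MITF were expressed, whereas RPE65, a defining gene of mature RPE, was at 0.02 FPKM or less, and RLBP1, LRAT, TYR, TYRP1, DCT and SERPINF1 were under 1 FPKM in every library. Erythroid genes, 21 found of a list of 23, summed to 19.8 to 22.7 FPKM in 4 libraries, nearly all of it TRIM58, but to 264 and 256 FPKM in Era+VK replicates 2 and 3. Both of these libraries held fetal and embryonic globin RNA, with HBB and SLC4A1 at 0.04 FPKM or less. They also held HBA1 (21.27 and 18.45 FPKM) and HBA2 (24.1 and 23.95 FPKM). The erythroid regulator genes GATA1 (2.35 and 2.27 FPKM), NFE2 (1.63 and 1.6) and KLF1 (1.17 and 0.82) were present too. In the other libraries each of these HBA, GATA1, NFE2 and KLF1 values was 0.11 FPKM or less. The part of this globin and erythroid RNA in the iron gene values was not tested. Fold changes without Era+VK replicates 2 and 3 are given below for the named iron genes that were tested.

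Of the 10 genes, 9 reached the minimum of 1 FPKM and SLC40A1 did not. None of the 9 had an adjusted p under 0.05 in limma, against 0.618% of all genes tested (0.134% higher and 0.484% lower), and 3 of them (STEAP3, FTL and TFRC) had an unadjusted p under 0.05, against 15.8% of all genes. The libraries of the groups did not overlap for 6 of the 9, against 22.1% of all genes tested. FTL, NCOA4 and SLC11A2 were higher in every Era+VK library, and FTH1, TFRC and STEAP3 were lower. Over all genes these shares were 15.1% higher and 7.04% lower. In an exact permutation test over libraries each of the 6 had a two-sided p of 0.1, the smallest that 3 libraries against 3 allow. The median log2 fold change of the 9 genes was 0.01, and that of all genes tested was 0.03. In bulk RNA, fewer cells of a kind and less RNA per cell cannot be told apart.

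**Figure D1:**
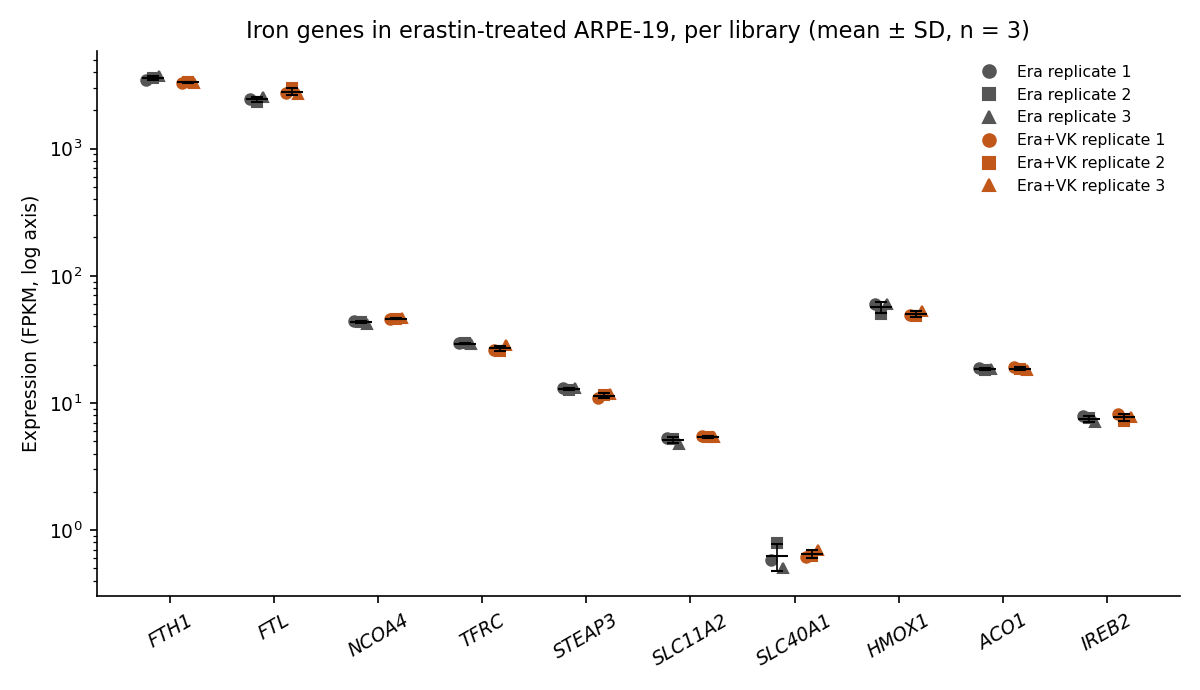
FPKM (log axis) of the 10 iron genes in each library, Era in grey and Era+VK in orange, with the mean and SD of 3 libraries as bars. The ferritin genes FTH1 and FTL lie between 2327 and 3753 FPKM, far above the other genes, and SLC40A1 lies below 1 FPKM in every library.

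Ferritin is a shell of heavy (FTH1) and light (FTL) subunits that holds iron as a mineral. The heavy subunit oxidizes ferrous iron, and the light subunit helps the mineral to form. Both genes were among the most highly expressed of the cell. By mean FPKM, FTH1 ranked 1st and FTL ranked 3rd of all genes outside the mitochondrial genome, and together they held 2.51% to 2.67% of the FPKM of a library.

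FTH1 (ENSG00000167996, chromosome 11, 61959718 to 61967660) was at 3483, 3575 and 3753 FPKM in Era and at 3300, 3343 and 3288 FPKM in Era+VK. All 3 Era+VK values lay under the Era range. Means were 3604 ± 137.3 FPKM for Era and 3310.0 ± 28.7 FPKM for Era+VK (SD of n = 3). The log2 fold change was -0.12 (standard error 0.06, 95% interval -0.27 to 0.02, adjusted p = 0.385 in limma). After quantile normalization, which replaces a value by the mean of its rank, the log2 fold change was 0.03. By FPKM, FTH1 ranked 4th in Era replicate 2 and 3rd in each other library. That value therefore reflects rank alone and cannot show the direction of a change. FTH1 lies on the opposite strand from BEST1, a gene of RPE, which was listed at 2.65, 0.65 and 56.98 FPKM in Era and at 36.45, 0.60 and 4.80 FPKM in Era+VK. Whether the counting used strand is not given in the sources used here, and the BEST1 value was at most 1.52% of that of FTH1.

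FTL (ENSG00000087086, chromosome 19, 48965301 to 48966878) went the other way. Its level was 2453, 2327 and 2561 FPKM in Era and 2735, 3002 and 2669 FPKM in Era+VK, with every Era+VK library above every Era library. Means were 2447 ± 117.1 FPKM and 2802 ± 176.4 FPKM (SD of n = 3), and the log2 fold change was 0.19 (standard error 0.07, 95% interval 0.03 to 0.36, adjusted p = 0.258 in limma). The highest of these libraries, Era+VK replicate 2, is one of the pair with globin RNA. With Era+VK replicate 1 alone against Era, the log2 fold change of FTL was 0.16 and that of FTH1 was -0.13.

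Because a ratio of genes within a library does not depend on a factor that scales the whole library, the ratio of FTL to FTH1 was also compared. It was 0.704, 0.651 and 0.683 in Era and 0.829, 0.898 and 0.812 in Era+VK. The light subunit thus took a larger part of ferritin RNA in each Era+VK library, and the groups did not overlap. With FTL above and FTH1 below the Era range in each of them, the ratio had to separate. Its separation and permutation p therefore add no independent support. The difference of the mean log2 ratio was 0.32, with SDs of 0.06 and 0.08 (n = 3 each; exact permutation test, two-sided p = 0.1, and 0.3 adjusted over the 3 ratios tested). With any 1 library left out it stayed between 0.27 and 0.35. Summed over both subunits, ferritin RNA was 6051 ± 228.8 FPKM for Era and 6112 ± 205.2 FPKM for Era+VK (SD of n = 3; exact permutation test, two-sided p = 0.5). Processed copies of ferritin genes can share reads with them. The 15 listed FTH1 pseudogenes summed to 55.2 to 72.7 FPKM per library, at most 1.94% of FTH1, and the 6 FTL pseudogenes to at most 0.156% of FTL.

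NCOA4, the receptor that carries ferritin to the lysosome for degradation, was at 44.0, 43.6 and 42.1 FPKM in Era and at 45.6, 45.6 and 46.4 FPKM in Era+VK. Every Era+VK library was above every Era library, by 6.08% in the mean. After median-ratio scaling the groups still did not overlap, but the mean was higher by only 3.39% (log2 fold change 0.047). Its log2 fold change was 0.08 (standard error 0.04, 95% interval -0.01 to 0.17, adjusted p = 0.353 in limma).

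**Figure D2:**
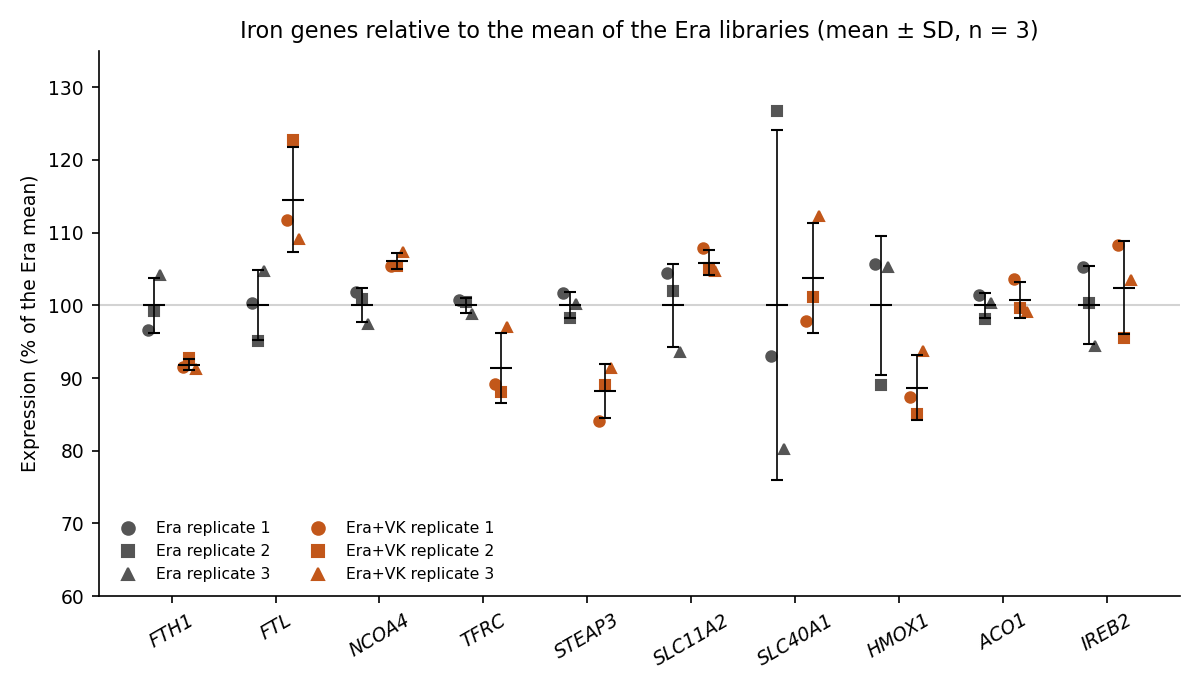
Level of each iron gene in each library as a percentage of its mean in the 3 Era libraries, Era in grey and Era+VK in orange, with mean and SD as bars. FTH1, TFRC and STEAP3 sit below and FTL, NCOA4 and SLC11A2 above all Era libraries in the 3 Era+VK libraries, while IREB2, ACO1, HMOX1 and SLC40A1 overlap. After quantile normalization FTH1 (ranked 3rd or 4th in each library) and SLC11A2 overlap too, and SLC11A2 also overlaps under the other 2 scalings.

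TFRC encodes transferrin receptor 1, which brings transferrin-bound iron into the endosome (ENSG00000072274, chromosome 3, 196027183 to 196082189). It was at 29.55, 29.44 and 28.96 FPKM in Era and at 26.1, 25.8 and 28.4 FPKM in Era+VK. The groups did not overlap, but Era+VK replicate 3 lay close to the Era range. Means were 29.3 ± 0.314 FPKM and 26.8 ± 1.42 FPKM (SD of n = 3), and the log2 fold change was -0.13 (standard error 0.05, 95% interval -0.24 to -0.015, adjusted p = 0.270 in limma). Its direction was the same under each of the 14 alternatives run, with adjusted p between 0.180 and 0.489, and with Era+VK replicate 1 alone the log2 fold change was -0.16.

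STEAP3 reduces ferric iron inside the endosome so that it can leave for the cytosol. It was at 13.2, 12.7 and 13.0 FPKM in Era and at 10.9, 11.6 and 11.9 FPKM in Era+VK, with no overlap. It had the lowest unadjusted p of the 9 genes (0.00718). Its log2 fold change was -0.17 (standard error 0.05, 95% interval -0.28 to -0.06, adjusted p = 0.161 in limma), and under the alternatives the adjusted p was between 0.10 and 0.343. SLC11A2, the transporter DMT1 that carries ferrous iron across the endosomal membrane, was at 5.34, 5.21 and 4.78 FPKM in Era and at 5.51, 5.37 and 5.35 FPKM in Era+VK. Its libraries separated only narrowly, and they overlapped after each of the 3 other scalings. The log2 fold change was 0.07 (95% interval -0.05 to 0.19, adjusted p = 0.557 in limma), and it was 0.031 without Era replicate 3, 0.032 after quantile normalization and 0.039 after median-ratio scaling.

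The ratio of ferritin RNA (FTH1 + FTL) to TFRC RNA sets storage transcripts against an uptake transcript. As a ratio of RNA, it does not measure ferritin protein or stored iron. It was 200.9, 200.5 and 218.0 in Era and 230.9, 245.5 and 209.5 in Era+VK. Era+VK replicate 3 lay within the Era range, so the groups overlapped. The difference of the mean log2 ratio was 0.145, with SDs of 0.07 and 0.12 (n = 3 each; exact permutation test, two-sided p = 0.2, and 0.3 adjusted over the 3 ratios). Within this ratio, FTH1 and TFRC were both lower in Era+VK, and FTL was higher.

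**Figure D3:**
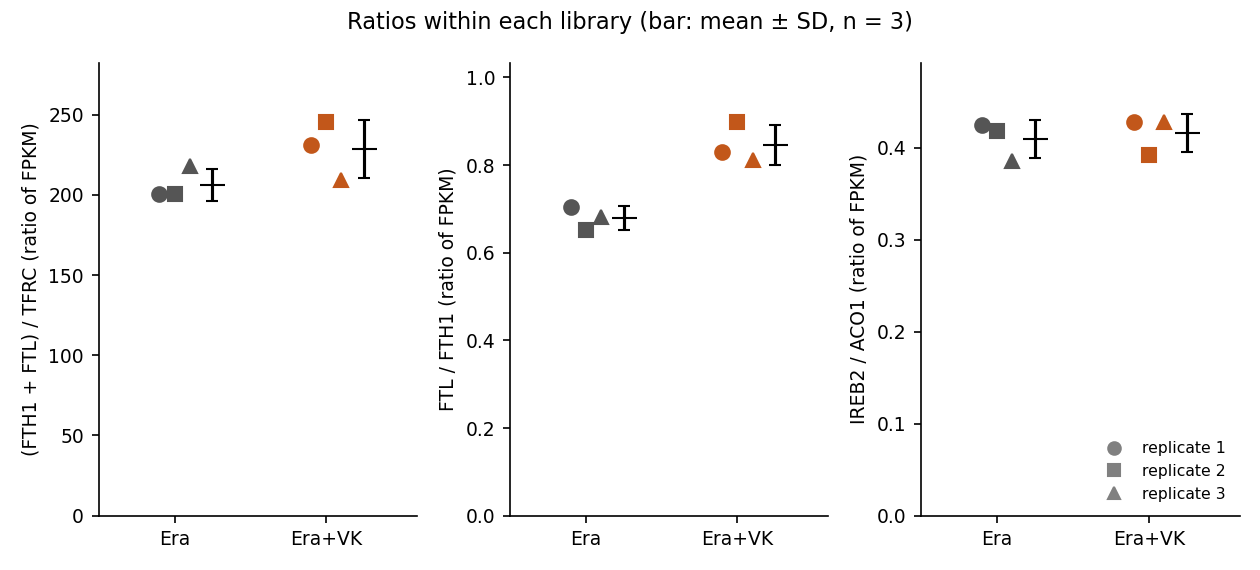
Ratios of FPKM within each library for ferritin (FTH1 + FTL) to TFRC, FTL to FTH1 and IREB2 to ACO1, with the mean and SD of 3 libraries beside the points and axes from 0. The FTL to FTH1 ratio is 0.651 to 0.704 in Era and 0.812 to 0.898 in Era+VK, and the other ratios overlap between the groups.

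For the regulators themselves no difference was detectable. ACO1, whose product is IRP1 when it lacks its iron-sulfur cluster and cytosolic aconitase when it holds it, was at 18.7, 18.1 and 18.5 FPKM in Era and at 19.1, 18.4 and 18.2 FPKM in Era+VK. Its log2 fold change was 0.01 (95% interval -0.09 to 0.11, adjusted p = 0.929 in limma). IREB2, whose product IRP2 is degraded when iron is plentiful, was at 7.93, 7.56 and 7.12 FPKM in Era and at 8.16, 7.20 and 7.80 FPKM in Era+VK. Its log2 fold change was 0.03 (95% interval -0.11 to 0.17, adjusted p = 0.849 in limma). Both signs turned under quantile normalization and median-ratio scaling, and the groups overlapped for both genes. The IREB2 to ACO1 ratio was 0.410 ± 0.0212 in Era and 0.416 ± 0.0205 in Era+VK (SD, n = 3 each; exact permutation test, two-sided p = 0.5). These are RNA levels, whereas the activity of both proteins is known to be set after translation.

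HMOX1 encodes heme oxygenase 1, which frees iron from heme. It was at 59.9, 50.4 and 59.7 FPKM in Era and at 49.5, 48.2 and 53.1 FPKM in Era+VK. Era replicate 2 lay within the Era+VK range, and the other Era libraries lay above it. The log2 fold change was -0.17 (standard error 0.07, 95% interval -0.34 to 0.01, adjusted p = 0.330 in limma). SLC40A1, ferroportin, the only known exporter of iron from cells, was at 0.58, 0.79 and 0.50 FPKM in Era and at 0.61, 0.63 and 0.70 FPKM in Era+VK. These values overlapped and were below the minimum for the test.

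**Figure D4:**
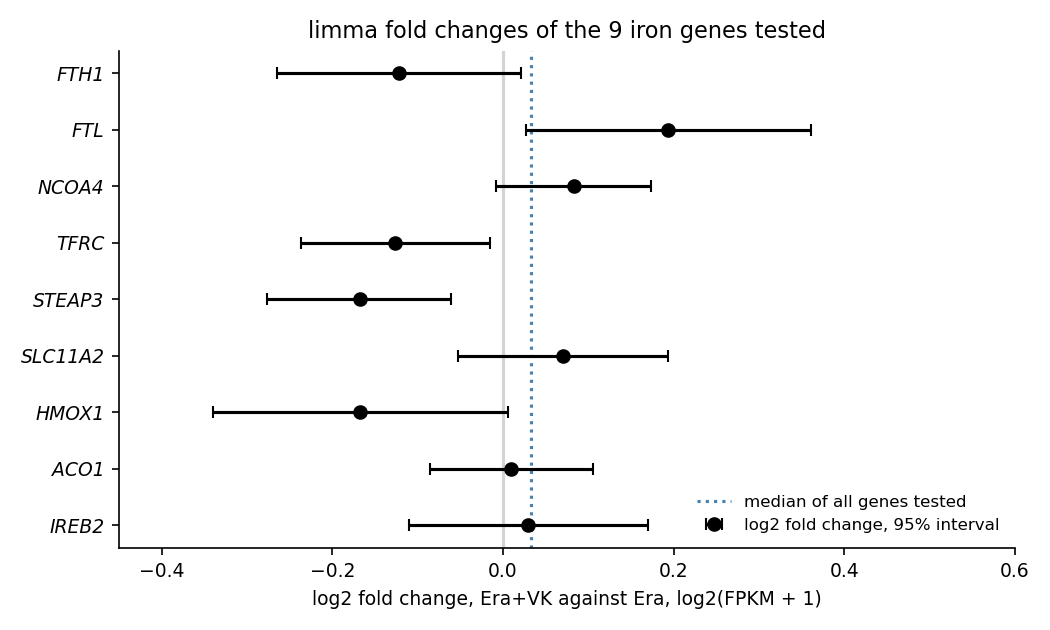
Log2 fold change of Era+VK against Era with its 95% interval from limma on log2(FPKM + 1) for the 9 iron genes tested. The intervals of TFRC and STEAP3 lie below 0 and that of FTL above 0, although none of the 9 has an adjusted p under 0.05. After quantile normalization FTH1, here at -0.12, is at 0.03, a value set by its rank alone (4th in Era replicate 2, 3rd in each other library).

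To place these genes in their pathway, 101 other iron genes in 7 lists were examined, of which 98 were listed in the files and 75 were tested. Of these 75, 1 was called, EPAS1, against 0.618% of all genes tested (0.484% lower), and 54 had a log2 fold change above 0 (7578 of all 11981 genes did). The median log2 fold change of the 75 was 0.05, against 0.03 for all genes tested. EPAS1 encodes HIF-2α, a hypoxia-inducible transcription factor, and its transcript is known to carry an IRE in the 5′ UTR, which the search with at least 4 pairs did not return. EPAS1 was at 26.3, 25.6 and 24.9 FPKM in Era and at 19.2, 18.7 and 21.0 FPKM in Era+VK, and thus fell. Its log2 fold change was -0.37 (standard error 0.05, adjusted p = 0.0340 in limma). The call did not hold without Era replicate 1, 2 or 3 (adjusted p = 0.145, 0.177 and 0.119), without Era+VK replicate 1 or 2 (0.0973 and 0.0578) or without Era+VK replicates 2 and 3 (0.0897), nor with no filter on low genes (0.121).

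Among 8 tested genes of iron export and of hepcidin, the hormone that removes ferroportin from the membrane, none was called. Of these 8, 7 were above 0 (7578 of all 11981 genes were). The groups did not overlap for 5, all higher in Era+VK (15.1% of all genes tested separated in that direction). Of the 75 tested genes of all 7 lists, 14 separated higher and 3 lower. The shares of all genes tested were 15.1% and 7.04%. The export and hepcidin list had the highest median of the 7 (log2 fold change 0.19). BMP6, the ligand that induces hepcidin in the liver, was at 6.68, 6.45 and 6.80 FPKM in Era. In Era+VK it was at 7.30 FPKM in replicate 3 and at 10.99 FPKM or just above in the others, so replicate 3 was much nearer to Era. The log2 fold change of BMP6 was 0.47 (adjusted p = 0.17 in limma), and without Era+VK replicate 3 it was 0.65 with an adjusted p of 0.0184. NEO1, neogenin, a partner of the BMP pathway, averaged 12.6 ± 0.743 FPKM and 15.5 ± 0.440 FPKM (SD of n = 3; log2 fold change 0.28 with an adjusted p of 0.0697 in limma).

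In the other lists only EPAS1 was called. The counts above 0 that follow stand beside 7578 of all 11981 genes tested. The median of all genes was 0.03, and 0.001 after median-ratio scaling. Of 7 other genes of uptake, 4 were above 0, with a median of 0.01. The zinc and iron transporter genes SLC39A14 (log2 fold change -0.14) and SLC39A8 (0.13) had adjusted p of 0.386 and 0.294 in limma, SLC39A14 being at -0.216 without Era+VK replicate 3 and at -0.091 without replicate 1. Of 5 other genes of storage and delivery, 2 were above 0 (median -0.02), with CD63, which marks the vesicles that can carry ferritin out, at -0.10 (-0.025 without Era+VK replicate 1, -0.064 without replicate 3 and -0.211 without replicate 2), and the iron chaperone gene PCBP1 averaged 151.1 FPKM and 142.0 FPKM, without overlap (adjusted p = 0.385 in limma). Of 7 genes of IRP control or with a known IRE, 4 were above 0 (median 0.005), SKP1, a subunit of the ubiquitin ligase that degrades IRP2, being at 0.12 (adjusted p = 0.445 in limma) and at 0.043 without Era+VK replicate 2. Of 9 genes of heme handling, 8 were above 0 (median 0.06), led by FLVCR1 (0.16), a heme exporter, and BLVRA (0.13), which reduces biliverdin. BLVRA was at 0.062 without Era replicate 2 and at 0.071 without Era+VK replicate 2. All 12 genes of heme synthesis were tested and 9 were above 0 (median 0.06), with ALAD at 0.19 (0.12 without Era replicate 3) and UROD at 0.15 (0.037 without Era+VK replicate 2 and 0.26 without replicate 1).

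Of 27 tested genes of iron-sulfur assembly and mitochondrial iron, 20 were above 0 (7578 of all 11981 genes were), with a median of 0.07. HSPA9, the mitochondrial chaperone that hands on new iron-sulfur clusters among other tasks, was at 34.8, 35.6 and 36.5 FPKM in Era and at 28.7, 31.2 and 30.1 FPKM in Era+VK. Its groups did not overlap (log2 fold change -0.24, adjusted p = 0.0751 in limma). FDX2, a ferredoxin of cluster assembly, was higher by 0.23 on the log2 scale (adjusted p = 0.378 in limma), by 0.15 without Era+VK replicate 2 and by 0.365 without replicate 1. With Era+VK replicate 1 alone, FDX2 was at -0.042 and UROD at -0.085.

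FTH1, FTL, HMOX1 and SLC40A1 are known targets of NRF2, a transcription factor of the oxidative stress response, so 20 other NRF2 target genes were set beside them. Of 16 tested, 10 were above 0 (7578 of all 11981 genes were), with a median log2 fold change of 0.05. The cystine transporter gene SLC7A11, also a target of ATF4, was the only one of the 16 called, against 0.618% of all genes tested. SLC7A11 fell by 41.5% in the mean, from 8.12 ± 1.06 FPKM to 4.75 ± 0.507 FPKM (SD of n = 3), with a log2 fold change of -0.66 and an adjusted p of 0.0337 in limma. That call did not hold without any 1 of Era replicates 1, 2 and 3 (adjusted p = 0.0832, 0.111 and 0.133) or of Era+VK replicates 1 and 2 (0.0911 and 0.0650), nor without Era+VK replicates 2 and 3 (0.126) or with no filter on low genes (0.161). ABCC3, a multidrug transporter gene, was at -0.34 (adjusted p = 0.129 in limma). SLC7A11 and ABCC3 were named for the size of their change, and the list moved in both directions. Of the 16 genes, 6 separated higher in Era+VK and 3 lower, against 15.1% and 7.04% of all genes tested. An unadjusted p under 0.05 in limma was found for 8 of the 16, against 15.8% of all genes tested.

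**Figure D5:**
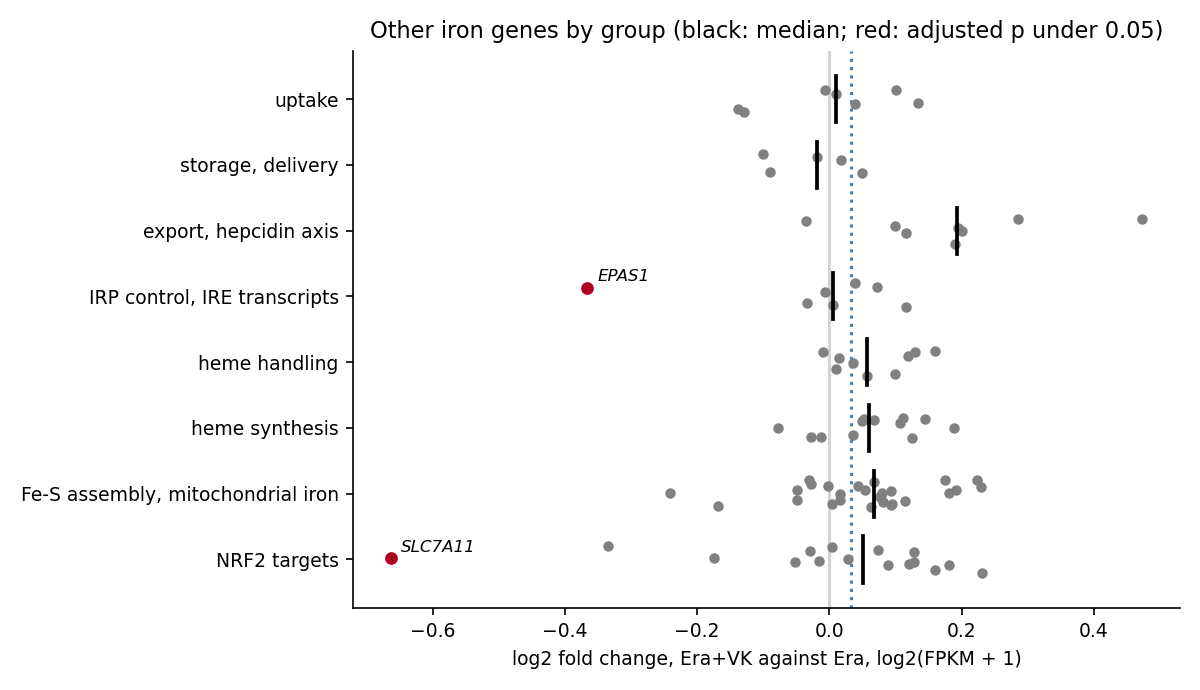
Log2 fold changes (Era+VK against Era, log2(FPKM + 1)) of the tested genes of 7 iron lists and of NRF2 targets, 1 point per gene, with the list median as a black bar, called genes in red and the median of all genes as a dotted line. EPAS1 (-0.37) and SLC7A11 (-0.66) are the called genes, and most other points lie between -0.2 and 0.2.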

How the data were processed

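The 6 RNA-seq libraries came from ARPE-19 cells under erastin, and 3 of them also had vitamin K1; they were grouped by title. Doses and times are those of the study's paper, as the labels give none. The authors deposited FPKM per gene, with 2 decimals. Their processing notes name cutadapt, HISAT2 and StringTie 2.1.6 and the mouse build mm10, while the identifiers are human; annotation and strand setting are not given in the sources used here. The labels number the cell line upwards from sample to sample, and the titles name ARPE-19 throughout.

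FPKM are relative to the library, keep no counts, and move with abundant genes such as ferritin. The test was limma 3.58.1 (R 4.3.3, trend) on log2(FPKM + 1) of genes averaging 1 FPKM or more, Benjamini-Hochberg adjusted over all genes at 0.05. The script was tested on simulated data. Ratios were compared by exact permutation. Positions and transcript sequences are from GENCODE 29 on GRCh38, matched by identifier. The members and lists were chosen with earlier results of these data known. Named genes are the members, every called list gene and the 2 largest changes per list, with ferritin pseudogenes as sums; BEST1 and genes near 0 were named after their values were seen. Alternatives were a pseudocount of 0.1, 2 other filters, 3 other scalings, the replicate number as a block, and libraries left out.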

Additional observations from a re-analysis of the deposited data

How the results depend on the processing

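Against 74 called genes, limma called 1 with no filter, 122 with at least 1 FPKM in every library, 112 after quantile normalization, 118 after median-ratio scaling (13 higher and 105 lower, against 16 and 58), 42 with the replicate block, 35 without Era+VK replicates 2 and 3, and 2 to 70 with 1 library left out, the lowest counts being those without an Era library (2, 2 and 5). Of the 10 members none was called in any alternative. The count of other iron genes called was 1, and it was 0 with no filter, 2 after quantile normalization and 2 after median-ratio scaling (EPAS1 and HSPA9), 0 with the replicate block, and 0 to 2 with 1 library left out (without Era+VK replicate 3, EPAS1 and BMP6). Without Era+VK replicates 2 and 3 it was 1, BMP6. The causes were not tested.

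FTH1 was at 0.03 (0.029) after quantile normalization, which replaces a value by the mean of its rank, and at -0.146 to -0.092 with 1 library left out. It ranked 4th in Era replicate 2 and 3rd in each other library, so its quantile value cannot show a direction. FTL stayed at 0.144 to 0.229 and TFRC at -0.168 to -0.101. Signs turned for IREB2 after quantile normalization (-0.006), after median-ratio scaling (-0.003) and with 1 library left out (-0.006 to 0.074), and for ACO1 (-0.016, -0.025 and -0.009 to 0.022). Without Era+VK replicates 2 and 3, UROD was at -0.085 and FDX2 at -0.042. In the same fit CD63 was at -0.25, SLC39A14 at -0.23, PCBP1 at -0.128, SLC39A8 at 0.074, BLVRA at 0.044 and SKP1 at 0.054. BMP6 was at 0.651, NEO1 at 0.324, ALAD at 0.233, FLVCR1 at 0.169, EPAS1 at -0.395 and HSPA9 at -0.303. SLC7A11 was at -0.723 and ABCC3 at -0.426. Likewise STEAP3 was at -0.23, HMOX1 at -0.187, SLC11A2 at 0.093, NCOA4 at 0.075, IREB2 at 0.103 and ACO1 at 0.049. The difference of the mean log2 ratio was then 0.288 for FTL to FTH1, 0.162 for ferritin to TFRC and 0.065 for IREB2 to ACO1. The log2 ratio of IREB2 to ACO1 differed by -0.02 to 0.065 with 1 library left out, that of ferritin to TFRC by 0.092 to 0.207. Same-numbered libraries deviated together with correlations of 0.071, 0.103 and 0.021, and the other combinations with -0.114 to 0.04. Era replicates 1 and 2 correlated best with their own number, and Era replicate 3 with Era+VK replicate 1. As these correlations were small, the libraries were not taken as pairs, but pairing was not excluded. With the replicate block the adjusted p was 0.0865 for EPAS1 and 0.0714 for SLC7A11. Without counts, no limit from depth could be given.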

Other observations

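Several genes of systemic iron handling were at or near 0 in these cells. TF, which encodes the carrier transferrin, was listed at 0 in all 6 libraries, the hepcidin gene HAMP was at 0.02 FPKM or less and the ferroxidase gene CP, ceruloplasmin, at 0.04 to 0.07 FPKM. TFR2, a second transferrin receptor, was at 0.57 to 0.93 FPKM. STEAP2 (0.84 to 1.13 FPKM) and STEAP1 (0.39 to 0.74 FPKM), relatives of STEAP3, had means under 1 FPKM, and STEAP4 was at 0.01 FPKM or less. ALAS2, the erythroid enzyme of heme synthesis, was at 0.57 and 0.28 FPKM in Era+VK replicates 2 and 3 and at 0.02 FPKM or less in the other 4 libraries.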
